A study of Mus musculus with 33 samples.

Results

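Microglia of 3-month-old mice with a germline Irf8 knockout were compared with WT microglia by RNA sequencing. The libraries were chosen by their titles, which gave 4 IRF8KO and 4 WT libraries, 8 of the 33 in the series. The series as a whole compared WT, IRF8KO, 5xFAD, 5xFAD/IRF8KO, conditional Irf8 knockout and Batf3KO mice. All animals of both groups were labelled C57BL/6, female and untreated, and their only labelled difference was the genotype, WT or IRF8KO. IRF8KO removes the gene from every cell of the body from conception, and the labels do not say which exons were deleted. Per the labels' protocols, brains were taken apart without enzymes, microglia were sorted by flow cytometry into TRIzol, and cDNA was amplified with SMART-Seq v4 and made into libraries with Nextera XT. Nothing in the labels says that replicates came from separate animals, so the p-values measure the spread between these libraries, which may in part be technical. The 3 WT libraries of the Batf3KO experiment, also labelled 3 months old and untreated, served as a reference for what sorted microglia express. Genes that averaged 5 CPM (counts scaled to a common library total) or more in those 3 libraries are called microglia-expressed genes here.

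IRF8 belongs to the interferon regulatory factors and acts in myeloid cells. It binds DNA with PU.1 at ETS-IRF composite elements and with other IRF or BATF proteins at related sites, and it is known for opposing neutrophil production in bone marrow while favouring monocytes, dendritic cells and microglia. Microglia are the macrophages of the brain parenchyma. In their resting state they carry purinergic receptors, complement C1q and the transcription factor SALL1, whereas border macrophages of the meninges and vessels carry receptors such as CD206, the product of Mrc1.

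Counts in genes ranged from 2305663 to 16697746 in the WT and from 5957998 to 13070110 in the IRF8KO libraries, so WT replicate 1 was the shallowest. Of all reads of a library, 47.3% to 73.8% were counted in genes. Unmapped reads took 6.055% to 11.5% in WT and 2.51% to 3.98% in IRF8KO, without overlap. This share and genotype can therefore not be told apart here, and its part in the calls was not tested. Multimapping reads took 13.2% to 29.8% across both groups, against at most 4.02% in the reference WT libraries. Mitochondrial genes took 4.12% to 12.9% of gene counts in WT and 2.16% to 7.19% in IRF8KO, against 0.158% to 0.317% in the reference. The WT libraries were less alike, with correlations of log2 CPM between pairs of 0.739 to 0.827, against 0.842 to 0.907 among the IRF8KO libraries. Y-linked transcripts went against the label female in both groups, at 7.81, 72.2, 72.9 and 107 CPM across WT replicates 1 to 4 and at 118, 143, 161 and 122 CPM across IRF8KO. Xist, the RNA of the inactive X chromosome, was at 0.779 to 6.07 CPM across WT and had 0 counts in every IRF8KO library. In the reference WT libraries Xist was at 80 to 113 CPM and in the conditional knockout series at 166 to 244 CPM, before scaling. None of the 4 Y-linked genes was called, but a score of the sex-linked transcripts did not overlap between the groups, so it and genotype cannot be told apart in this comparison. With that score as a covariate, 43 of 13121 genes were called in place of the 970 given below.

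The targeted gene was examined before all others. Irf8 (ENSMUSG00000041515.10, chr8:120736358-120756694, plus strand, GRCm38) had 305, 227, 213 and 236 CPM across WT replicates 1 to 4 and 90.3, 90.3, 153 and 119 CPM across IRF8KO. The groups did not overlap, and every IRF8KO library kept counts over the gene as a whole, which also overlaps Gm20388. The fall of 1.11 log2 units (SE 0.299, edgeR adjusted p 0.0415) was near the threshold. Its call was lost without WT replicate 1 (-0.96, adjusted p 0.0888) or 2 (-1.15, 0.0655) and without IRF8KO replicate 1 (-1.01, 0.154), 2 (-1.05, 0.113), 3 (-1.29, 0.0601) or 4 (-1.13, 0.108). It was also lost with the neutrophil (-1.15, adjusted p 0.15) or red blood cell score (-1.24, 0.055) as a covariate. In the 3 reference WT libraries Irf8 stood at 1080, 1040 and 968 CPM before scaling, against 218 to 262 CPM in the WT libraries here and 83.1 to 171 CPM across IRF8KO. Batf3 (ENSMUSG00000026630.9, chr1:191097847-191108945), which encodes a leucine zipper partner of IRF8, had 64.2, 26.8, 16.8 and 21.7 CPM across WT and 1.72, 0, 1.02 and 0.308 CPM across IRF8KO. It fell by 5.33 log2 units (SE 0.892, adjusted p 0.00543), and this call held whichever library was left out.

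What else the sorted samples held differed between the groups and within them. The 36 homeostatic microglial genes took 16.3%, 10.3%, 8.46% and 7.89% of gene counts in WT replicates 1 to 4 and 2.11%, 1.93%, 3.19% and 3.44% in IRF8KO. The means were 10.7% ± 3.86 and 2.67% ± 0.76 (SD, n = 4 each), and the exact two-sided permutation p was 0.0286, the smallest that 4 against 4 libraries allow. Transcripts of 22 neutrophil genes went the other way, with 5.1%, 4.63%, 0.933% and 5.45% in WT and 11.4%, 18.3%, 9.2% and 8.49% in IRF8KO. Their means were 4.03% ± 2.09 and 11.8% ± 4.46 (SD, n = 4 each; exact permutation p = 0.0286), and without WT replicate 3 the exact p was 0.0571. In the reference WT libraries homeostatic genes took 17.3% and neutrophil genes 0.108%. WT replicate 3 had the fewest neutrophil transcripts and the most oligodendrocyte transcripts, 6.34% against 0.329% to 3.72% in the other 7 libraries. Choroid plexus transcripts took 0.0461%, 1.85%, 1.28% and 3.08% in WT and 0.181% to 0.367% in IRF8KO. Red blood cell transcripts took 3.33% to 10.6% in WT and 1.01% to 9.47% in IRF8KO, with overlap. In such bulk samples fewer cells of a type and less RNA per cell cannot be told apart.

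**Figure D1:**
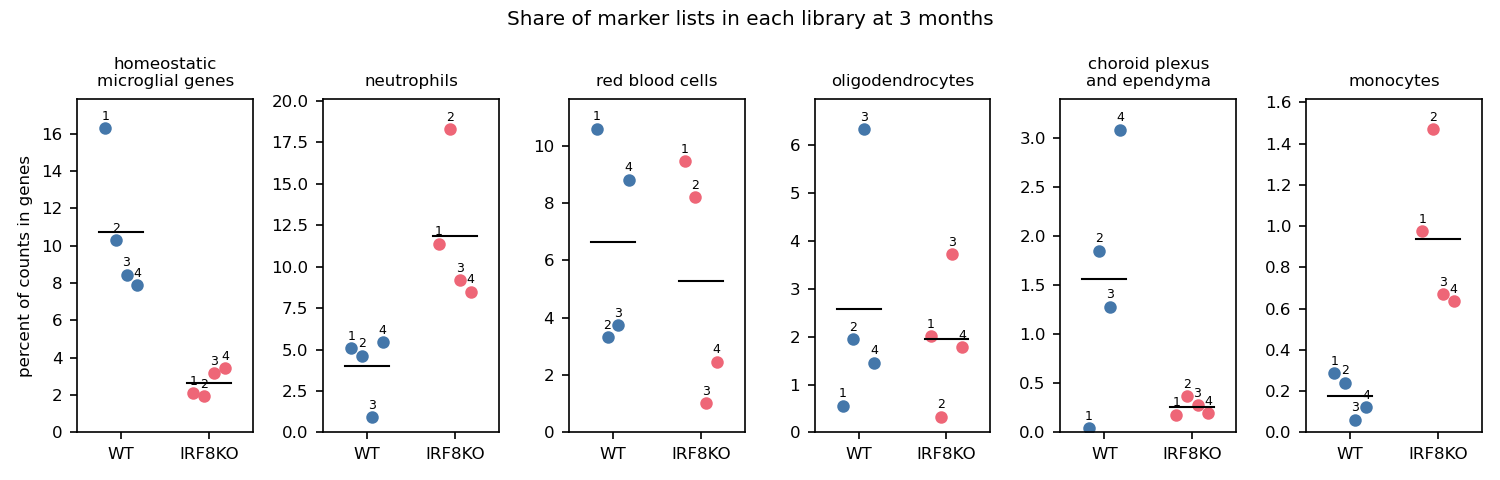
Percent of the counts in genes taken by 6 marker lists in each WT and IRF8KO library at 3 months. Points are libraries with their replicate numbers and lines are group means (n = 4 each). Homeostatic genes are lower and neutrophil and monocyte genes higher in all 4 IRF8KO libraries, while red blood cell and oligodendrocyte genes overlap.

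Across all genes, 970 of 13121 (7.39%) were called at an adjusted p under 0.05, with 545 (4.15%) higher and 425 (3.24%) lower in IRF8KO. Of the 9426 microglia-expressed genes 9192 could be tested, and 691 of them (7.52%) were called, 371 higher (4.04%) and 320 lower (3.48%). The share among the other 3929 genes was 7.1%, so microglia-expressed genes were called at close to the rate of the rest. Of the 691, 150 rose and 122 fell by at least 2 on the log2 scale. The microglia-expressed set is not free of other cells, since it held 6 of the 12 tested red blood cell genes, 6 of 13 oligodendrocyte genes and 1 of 21 neutrophil genes. The count depended on the IRF8KO libraries and was 208, 335, 309 or 335 without IRF8KO replicate 1, 2, 3 or 4. A core of 198 genes, 125 higher and 73 lower, was called in all 8 fits that left out 1 library. With the neutrophil score of each library as a covariate 226 microglia-expressed genes were called, 169 of them among the 691, and all 691 kept their direction. That score, on the log2 scale, was 13.2 to 15.7 in WT and 16.4 to 17.5 in IRF8KO. As the groups did not overlap, it and genotype cannot be told apart here. A call lost or held with the neutrophil covariate therefore does not say whether neutrophil RNA made the difference.

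**Figure D2:**
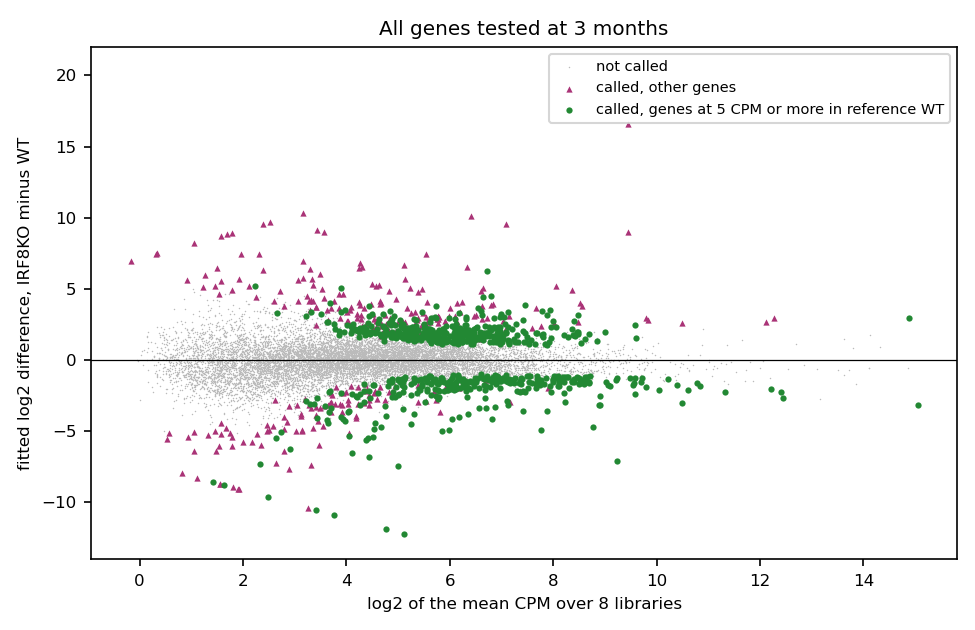
Fitted log2 difference between IRF8KO and WT (vertical axis) against the log2 of the mean CPM over the 8 libraries (horizontal axis) for the 13121 genes tested. Green circles are the 691 called microglia-expressed genes and purple triangles the 279 other called genes. Called microglia-expressed genes lie on both sides of 0, and the purple points reach higher than the green ones.

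The deepest falls were of genes with no counts in any knockout library. Of the 320 lower microglia-expressed genes, 7 had 0 counts in all 4 IRF8KO libraries: Spint1, Upk1b, Tnfrsf17, Slamf8, Adamts16, Sarm1 and Gm3739. Spint1 (chr2:119237362-119249527), an inhibitor of membrane-bound serine proteases, had 84.5, 94.4, 64.2 and 35.2 CPM in the WT libraries and was at least 767-fold lower (adjusted p 0.000397). This bound uses 3 counts over the 4 IRF8KO libraries and covers counting error only. Upk1b, a tetraspanin, had 33.9, 87.9, 83.4 and 12.3 CPM across WT and was at least 599.5-fold lower (adjusted p 0.00156). Tnfrsf17, the receptor BCMA for the B cell factors BAFF and APRIL, had 56.7, 19.7, 15.4 and 16.4 CPM across WT and was at least 298-fold lower (adjusted p 0.00198). Slamf8, an immunoglobulin-like receptor of myeloid cells, had 21.2, 38.1, 20.9 and 5.35 CPM across WT and was at least 236-fold lower (adjusted p 0.00268). WT replicate 4 was the lowest WT library for Spint1, Upk1b and Slamf8, yet it stood above every knockout library in each. Adamts16, a secreted metalloprotease, had 8.31 to 15.4 CPM across WT and was at least 124-fold lower (adjusted p 0.00435). Sarm1, the NADase of axon degeneration, had 3.11 to 8.7 CPM and was at least 68.3-fold lower (adjusted p 0.011). Gm3739 had 1.5 to 8.38 CPM and belongs to a family of similar predicted genes, so its counts are uncertain. It was at least 59.0-fold lower (adjusted p 0.015), which no longer passed without IRF8KO replicate 1 (adjusted p 0.0564). The neutrophil covariate ended the calls of Sarm1 (adjusted p 0.0658) and Gm3739 (0.0542) and left those of the other 5 genes. The fitted values, which are no bounds, went from -8.79 to -8.31 for Sarm1 and from -8.57 to -9.82 for Gm3739.

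Ly86 stood out by its level. It encodes MD-1, the partner of the LPS-modulating receptor RP105, and had 1950, 1350, 755 and 739 CPM across WT replicates 1 to 4 against 8.15, 2.34, 9.89 and 15 CPM across IRF8KO. The groups were far apart, and Ly86 (chr13:37345208-37419036) fell by 7.08 log2 units (SE 0.645, adjusted p 0.000397), a call held under every setting tried. Klk8, a secreted serine protease, had 110, 29.7, 41 and 72.6 CPM across WT and 0, 0.18, 0 and 1.39 CPM across IRF8KO, a fall of 7.43 (SE 1.04, adjusted p 0.00237). It overlaps 2310002F09Rik. Pomgnt2, a glycosyltransferase of dystroglycan, had 4.05 to 15.8 CPM across WT and 2 counts in all of IRF8KO, a ratio of 166 (exact 95% counting interval 45.9 to 1369; adjusted p 0.00594). Its call was lost with the neutrophil covariate (adjusted p 0.0605).

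**Figure D3:**
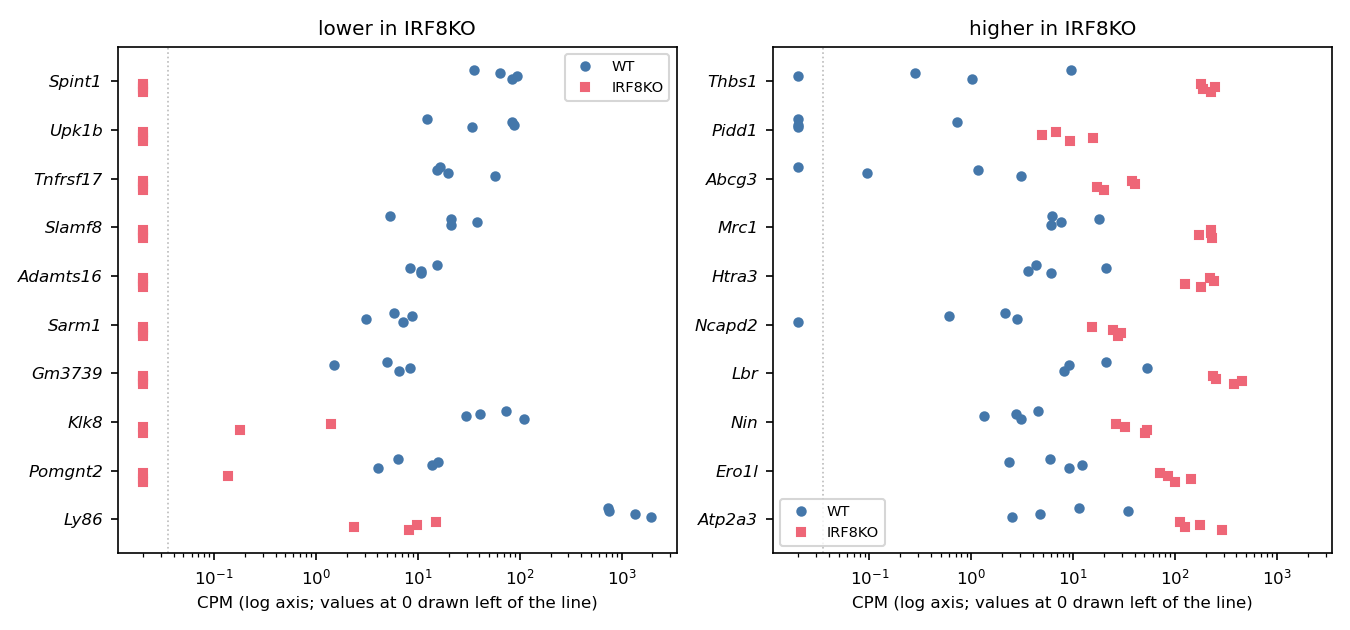
CPM in each WT (blue circles) and IRF8KO (red squares) library for the 10 microglia-expressed genes with the largest falls (left) and rises (right), on a log axis with values at 0 drawn left of the dotted line. Genes were chosen among those without overlap between the groups, and 7 of the falls have 0 counts in all 4 IRF8KO libraries.

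Promoters were searched for the elements that IRF8 is known to bind, on both strands, in the 250 bases before and 50 after each start in RefSeq (GRCm38.p6). The ETS-IRF composite element was searched as GGAANNGAAA and the interferon-stimulated response element as GAAANNGAAA, and a stretch can hold both. Of the 13121 tested genes 10123 had a promoter in the table. Among these genes, 2.96% held the composite element and 3.9% the response element in any of their 13105 promoters. Counted by single promoter and not by gene, the shares over all 32851 promoters of the table were 2.72% and 3.44%. Among 242 lower microglia-expressed genes 2 (0.826%, exact 95% interval 0.1 to 2.95) held the composite element and 10 (4.13%, 2 to 7.47) the response element. Among 292 higher genes the shares were 4.45% (2.39 to 7.49) and 4.11% (2.14 to 7.07), and among all 7357 microglia-expressed genes 3.02% and 3.62%. The response element was thus about as frequent in promoters of lower genes as in all. The composite element was less frequent in lower genes, at 0.826% with an interval ending at 2.95, against 3.02% in all. It rested on 2 genes, and no test was made. Of the 8 genes among the 10 deepest falls with a promoter in the table, Tnfrsf17 and Slamf8 held a match and Spint1, Sarm1, Gm3739, Klk8, Pomgnt2 and Ly86 held none in this window. Meg3, described below, also combines a strong fall with a match, but its promoter is not shown. The promoters of Slamf8, Tnfrsf17 and Aif1 are shown as examples of lower genes that hold the response element. Each is the 250 bases before the start, 5′ to 3′ on the strand of its gene, with the match in capitals, which read TTTC first where the element lies on the opposite strand.
Slamf8 (chr1:172590569-172590818, minus strand): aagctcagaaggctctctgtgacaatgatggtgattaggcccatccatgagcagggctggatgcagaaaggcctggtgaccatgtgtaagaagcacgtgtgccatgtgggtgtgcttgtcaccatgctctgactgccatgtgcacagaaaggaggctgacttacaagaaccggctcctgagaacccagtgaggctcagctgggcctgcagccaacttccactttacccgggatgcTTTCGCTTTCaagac
Tnfrsf17 (chr16:11313559-11313808, plus strand): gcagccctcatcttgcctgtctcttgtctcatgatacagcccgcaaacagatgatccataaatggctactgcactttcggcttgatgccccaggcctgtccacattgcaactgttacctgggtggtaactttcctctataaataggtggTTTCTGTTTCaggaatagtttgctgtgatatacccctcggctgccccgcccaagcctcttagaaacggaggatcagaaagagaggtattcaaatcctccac
Aif1 (chr17:35176053-35176302, minus strand): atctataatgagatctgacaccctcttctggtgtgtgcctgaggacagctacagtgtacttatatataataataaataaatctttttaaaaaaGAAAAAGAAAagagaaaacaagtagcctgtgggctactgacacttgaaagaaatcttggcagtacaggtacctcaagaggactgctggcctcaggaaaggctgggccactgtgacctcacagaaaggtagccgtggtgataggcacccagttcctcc

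The match lay 15 to 6 bases before the start of Slamf8, 101 to 92 before that of Tnfrsf17 and 157 to 148 before that of Aif1. Aif1 encodes IBA1, the actin-bundling protein by which microglia are commonly stained. It had 1130, 646, 376 and 1230 CPM across WT replicates 1 to 4 and 17.1, 41.1, 24.2 and 49.6 CPM across IRF8KO. All WT libraries were far above the knockout libraries, and Aif1 fell by 4.68 (SE 0.518, adjusted p 0.000908). The microglia-expressed lower gene with the composite element and the smallest p was Meg3, a long noncoding RNA listed here among the neuronal genes and described below.

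Of the 10 largest rises, that of the macrophage mannose receptor had the smallest p. Mrc1 (chr2:14229392-14332057, overlapping Mir511) had 6.07, 7.54, 17.7 and 6.15 CPM across WT and 229, 171, 225 and 226 CPM across IRF8KO. It rose by 4.47 log2 units (SE 0.43, adjusted p 0.000412). Htra3, a secreted serine protease, had 6.07, 3.58, 21.1 and 4.28 CPM across WT and 180, 125, 239 and 221 CPM across IRF8KO, a rise of 4.41 (SE 0.587, adjusted p 0.00205). For both genes WT replicate 3 was the highest WT library, and both calls held with the neutrophil covariate. Thbs1, the matrix glycoprotein thrombospondin 1, had 1.01, 0, 0.277 and 9.49 CPM across WT and 225, 189, 244 and 178 CPM across IRF8KO. It rose by 6.26 (SE 1.11, adjusted p 0.00729), a call lost with the neutrophil covariate (4.61, adjusted p 0.0856). Ero1l, an oxidase of the endoplasmic reticulum, had 2.33 to 12.2 CPM across WT and 70.3 to 142 CPM across IRF8KO, and rose by 3.77 (SE 0.513, adjusted p 0.00225). Atp2a3, a calcium pump of the endoplasmic reticulum, had 2.53 to 34.5 CPM across WT and 112 to 288 CPM across IRF8KO, and rose by 3.66 (SE 0.689, adjusted p 0.00956). Both were called with the neutrophil covariate as well.

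The other large rises were not called with the neutrophil covariate. Under it the fitted rises of Lbr, Nin and Ncapd2 were smaller and those of Abcg3 and Pidd1 larger. Lbr, the lamin B receptor, had 8.09, 52.6, 9.03 and 21.1 CPM across WT and 381, 454, 253 and 235 CPM across IRF8KO, a rise of 3.84 (SE 0.589, adjusted p 0.00338; 2.74 and 0.0785 with the neutrophil covariate). Nin, a centrosome protein, rose by 3.80 (adjusted p 0.00237), from 1.32 to 4.55 CPM across WT to 26.4 to 53 CPM across IRF8KO, and by 3.45 with an adjusted p of 0.0514 under that covariate. Abcg3, a transporter of the ABCG family, rose by 5.09 (adjusted p 0.014; 6.14 and 0.0752 with it). Ncapd2, a condensin subunit, rose by 4.0 (adjusted p 0.0118; 2.97 and 0.162 with it), a call also lost without IRF8KO replicate 1 (adjusted p 0.0517). Pidd1, an adaptor of the p53 response, had counts in WT replicate 3 only and 4.98 to 15.7 CPM across IRF8KO (5.21, adjusted p 0.0348; 9.05 and 0.0787 with the neutrophil covariate). Before scaling, Pidd1 stood at 12.5 to 19.1 CPM in the reference WT libraries, 0 to 0.779 CPM in the WT libraries here and 5.59 to 14.4 CPM across IRF8KO. For Pidd1 the IRF8KO libraries were thus nearer to the reference than the WT libraries here. Its call was lost without WT replicate 1 (adjusted p 0.0619), 2 (0.0564) or 4 (0.0508) and without IRF8KO replicate 1 (0.101), 2 (0.103), 3 (0.065) or 4 (0.0733), and its sign turned with the sex score as a covariate (-0.24).

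Lists of genes with known roles are described next by counts and medians, to be read against the median of all 13121 genes, -0.02 on the log2 scale, and the shares of 4.15% higher and 3.24% lower calls. Of the 36 homeostatic genes 17 fell and 0 rose, with a median of -1.55. P2ry12, the ADP receptor of microglial processes, had 3540, 3310, 2000 and 1490 CPM across WT and 295, 288, 304 and 373 CPM across IRF8KO, with no overlap, and fell by 3.04 (SE 0.402, adjusted p 0.00199). Slc2a5, a fructose transporter, had 322, 253, 284 and 151 CPM across WT and 17.4, 17.7, 39.9 and 34.4 CPM across IRF8KO, and fell by 3.2 (SE 0.401, adjusted p 0.00165). Ecscr, a transmembrane protein, fell by 3.36 (adjusted p 0.00247, SE 0.473), from 98.4 to 387 CPM down to 13.2 to 24.4 CPM. The other called members were Upk1b, P2ry13, Gpr34, Siglech (adjusted p 0.0595 without IRF8KO replicate 1), Selplg, Crybb1, Sparc, Cst3, Adgrg1, Lrba, Trem2, C1qa, C1qb and C1qc. Members did not move alike, since Csf1r, the receptor for the survival factors CSF1 and IL-34, had 1610 to 3660 CPM across WT and 1410 to 3020 CPM across IRF8KO (-0.23, adjusted p 0.802). Cx3cr1 (-0.80, adjusted p 0.135) and Tmem119 (-1.01, adjusted p 0.106) were lower in every knockout library but not called. Without IRF8KO replicate 1 only 6 members were called lower, and with the neutrophil covariate 9.

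Among 39 myeloid transcription factors 6 rose and 2 fell (median 0.45). The falls were those of Sall1, which maintains microglial identity, and Egr1, an immediate early factor. Sall1 had 32.9, 36.6, 29.4 and 81 CPM across WT and 5.33, 0, 0 and 1.08 CPM across IRF8KO, a fall of 4.85 (SE 1.16, adjusted p 0.0268). That call was lost without WT replicate 4 (-4.39, adjusted p 0.0608) or IRF8KO replicate 4 (-4.70, 0.078), and with the neutrophil covariate (0.0967). Egr1 had 89.5, 100, 72.3 and 75.4 CPM across WT and 12.5, 16.6, 26.3 and 19.7 CPM across IRF8KO and fell by 2.16 (SE 0.344, adjusted p 0.00417). Bhlhe40, a helix-loop-helix repressor of macrophages, had 3.54, 7.82, 20.6 and 4.01 CPM across WT and 62.1, 50.8, 62.1 and 61.5 CPM across IRF8KO, a rise of 2.67 (SE 0.543, adjusted p 0.0129). Its relative Bhlhe41 rose by 2.41 (SE 0.522, adjusted p 0.0178), lost without IRF8KO replicate 3 (adjusted p 0.0505) or 4 (0.0602). Stat3, which relays cytokine signals, rose by 1.63 (adjusted p 0.0422). Gfi1 and Cebpe, factors of the neutrophil lineage, rose by 4.34 and 2.83 (adjusted p 0.0378 and 0.0288). Without IRF8KO replicate 3 only 1 of the 6 rises was called, and with the neutrophil covariate 2. Spi1, which encodes PU.1, showed 145 to 647 CPM across WT and 310 to 424 CPM across IRF8KO (0.00, adjusted p 0.997).

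The disease-associated list, genes that rise in microglia near amyloid plaques, was split, with 4 of 35 higher and 8 lower (median -0.22). The rises were those of Apoe, Clec7a, Cst7 and Csf1. Apoe, the apolipoprotein of brain lipid transport, had 5970, 8060, 10800 and 3260 CPM across WT and 41200, 49000, 59600 and 62900 CPM across IRF8KO, and rose by 2.92 (SE 0.598, adjusted p 0.0132), also with the neutrophil covariate (3.67, adjusted p 0.037). Clec7a, which encodes the receptor Dectin-1, had 36.4, 36.3, 12.2 and 14.4 CPM across WT and 181, 208, 164 and 195 CPM across IRF8KO, a rise of 2.93 (SE 0.415, adjusted p 0.00249; 0.0544 with the neutrophil covariate). Cst7, the protease inhibitor cystatin F, rose by 2.34 (SE 0.447, adjusted p 0.0103; 0.2 with that covariate). The falls were those of Trem2, the lipid receptor that controls this state, Lpl, Cd68, Ccl3, Ccl4, Timp2, Ctsl and Ctsz. Trem2 had 760 to 2570 CPM across WT and 248 to 456 CPM across IRF8KO (-1.93, adjusted p 0.022), and Ccl4 had 79.5 to 160 CPM across WT and 0 to 20.9 CPM across IRF8KO (-4.14, adjusted p 0.0285). Without IRF8KO replicate 1, 0 of these 8 falls were called, and so it was with the neutrophil covariate.

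Lipid handling genes rose in 7 of 36 cases and fell in 1, Lpl (median 0.47). Apoc1 and Apoc4 are neighbours of Apoe on chromosome 7 and encode small apolipoproteins. Apoc1 had 4.55, 13.2, 11.8 and 54 CPM across WT and 478, 671, 495 and 906 CPM across IRF8KO, a rise of 4.91 (SE 0.679, adjusted p 0.00231). Apoc4 had 0, 4.62, 0.0554 and 0 CPM across WT and 46.1, 80, 75.4 and 75.7 CPM across IRF8KO (5.69, adjusted p 0.0115), a call lost with the neutrophil covariate (adjusted p 0.181). Soat1, which esterifies cholesterol, had 16.3 to 34.7 CPM across WT and 97.1 to 144 CPM across IRF8KO, and rose by 2.22 (SE 0.333, adjusted p 0.00304). Acsl1, an acyl-CoA synthetase, rose by 2.85 (SE 0.454, adjusted p 0.00417; 0.0707 with the neutrophil covariate), and Abca7, a lipid transporter, was also called higher. With the neutrophil covariate 4 of the 7 rises were called, and with a library left out 5 to 7. Of 41 lysosomal genes 6 fell and 0 rose (Ctsh, Ctsl, Ctss, Ctsz, Ctsf and Cd68; median -0.34). Ctsh, a cathepsin, had 1410, 1180, 538 and 342 CPM across WT and 112, 116, 79.8 and 82.2 CPM across IRF8KO, and fell by 3.15 (SE 0.467, adjusted p 0.00302). Only 1 lysosomal fall was called without IRF8KO replicate 1, 2 or 3, and 1 with the neutrophil covariate. The cathepsin gene with the highest level, Ctsd, was not called (-0.14, adjusted p 0.863).

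Antigen presentation genes of class I had 0 of 19 calls (median -0.08), among them B2m (-0.86, adjusted p 0.244) and H2-D1 (0.33, adjusted p 0.76). With 1 library left out at most 1 rise and 2 falls of that list were called, the rise without WT replicate 3. Of 15 class II genes 4 fell, H2-DMa, Ifi30, Ctss and Cd86 (median -1.23). H2-DMa, which edits the peptides of class II molecules, had 886, 441, 258 and 159 CPM across WT and 40.9, 30.6, 32.3 and 43.5 CPM across IRF8KO, and fell by 3.56 (SE 0.506, adjusted p 0.00249). It overlaps Brd2, and the counts did not use strand. Without WT replicate 1 or 2 or any IRF8KO replicate only 1 of these falls was called. Cd74 and H2-Ab1, the invariant chain and a class II chain, ranged from 136 to 2210 and from 55.8 to 1660 CPM within WT and were not called (adjusted p 0.723 and 0.63).

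Complement and Fc receptor genes fell in 4 of 21 cases and rose in 3 (median -0.42). The falls were those of all C1q chains, C1qa, C1qb and C1qc, and of Fcgr1, the high-affinity IgG receptor. C1qb had 17500, 9870, 6120 and 5210 CPM across WT and 1120, 1300, 1620 and 1970 CPM across IRF8KO, and fell by 2.69 (SE 0.512, adjusted p 0.0103). Without IRF8KO replicate 1, C1qb (adjusted p 0.0571) and Fcgr1 (0.0729) were not called, and the list then had 0 falls. C3, the central component of complement, moved the other way, with 18.7, 4.05, 7.65 and 27.1 CPM across WT and 293, 252, 145 and 163 CPM across IRF8KO (3.91, SE 0.57, adjusted p 0.00268; 0.0608 with the neutrophil covariate). Itgb2, the shared chain of the complement receptors, had 140 to 250 CPM across WT and 779 to 862 CPM across IRF8KO and rose by 1.95 (SE 0.311, adjusted p 0.00417). The third rise was that of Cfp, properdin.

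Pattern recognition receptors rose in 7 of 32 cases, Tlr2, Tlr4, Tlr8, Tlr13, Clec4n, Clec7a and Irak3, and fell in 2, Ly86 and Tlr12 (median 0.45). With the neutrophil covariate 2 rises were called. Tlr8, a sensor of RNA in endosomes, had 0.506 CPM in WT replicate 1, 0 in the other WT libraries and 20.2, 17.1, 34.3 and 23.3 CPM across IRF8KO. Its WT total was 1 count, which gives a ratio of 904.5 (exact 95% counting interval 162 to 35720; adjusted p 0.00174). Tlr13, a sensor of bacterial ribosomal RNA, had 31.4, 28, 21.5 and 41.1 CPM across WT and 100, 99.3, 141 and 116 CPM across IRF8KO (1.91, adjusted p 0.00543; 0.0759 with the neutrophil covariate). Among 25 chemokine and receptor genes 1 rose, Pf4, and 4 fell, among them Ccl3, Ccl4 and Ccl9 (median -0.14). There were 2 falls without IRF8KO replicate 1 and 1 with the neutrophil covariate. Pf4, a chemokine of platelets and border macrophages, had 17.7, 50.1, 47.3 and 59.8 CPM across WT and 471, 904, 565 and 820 CPM across IRF8KO, and rose by 3.97 (SE 0.439, adjusted p 0.000908). Ccl3, a chemokine of activated macrophages, had 29.4 to 81.4 CPM across WT and 4.57 to 13.4 CPM across IRF8KO, and fell by 2.62 (adjusted p 0.0121; 0.0542 with the neutrophil covariate), a call lost without IRF8KO replicate 1 (adjusted p 0.0559).

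Growth factor and cytokine receptors rose in 6 of 30 cases (Csf3r, Csf2ra, Csf2rb, Ifnar1, Il17ra and Tnfrsf11a) and fell in 1, Tnfrsf17 (median 0.53). There were 3 rises with the neutrophil covariate and 4 without IRF8KO replicate 1 or 3. Ifnar1, a chain of the type I interferon receptor, had 20.2, 15.9, 31.2 and 18.6 CPM across WT and 83.1, 75.1, 139 and 86.5 CPM across IRF8KO, and rose by 2.16 (SE 0.358, adjusted p 0.00518). Csf3r, the G-CSF receptor, which neutrophils also carry, had 135 to 178 CPM across WT and 472 to 588 CPM across IRF8KO (1.78, SE 0.284, adjusted p 0.00417). Interferon-stimulated genes rose in 5 of 47 cases (among them Siglec1, Ddx58, Slfn2 and Cmpk2) and fell in 1 (median 0.91). Cmpk2, a mitochondrial nucleotide kinase, rose by 2.64 (adjusted p 0.011, SE 0.514), from 3.54 to 23.3 CPM across WT to 58.7 to 124 CPM across IRF8KO, and lost its call without IRF8KO replicate 1 (adjusted p 0.0504). The fall was that of Ifi27l2a, which had 202, 215, 48.3 and 390 CPM across WT and 27, 17.1, 17.3 and 24.5 CPM across IRF8KO (-3.32, SE 0.532, adjusted p 0.00427). The number of interferon-stimulated rises was 1 without IRF8KO replicate 1 and reached 13 with another library left out. Heat shock genes had 0 rises and 2 falls of 15 (median -0.16), and both falls were lost whichever IRF8KO library was left out. Immediate early genes had 1 rise, Klf6, and 1 fall of 23 (median -0.15), and the call of Klf6 was lost with every library left out but WT replicate 1.

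**Figure D4:**
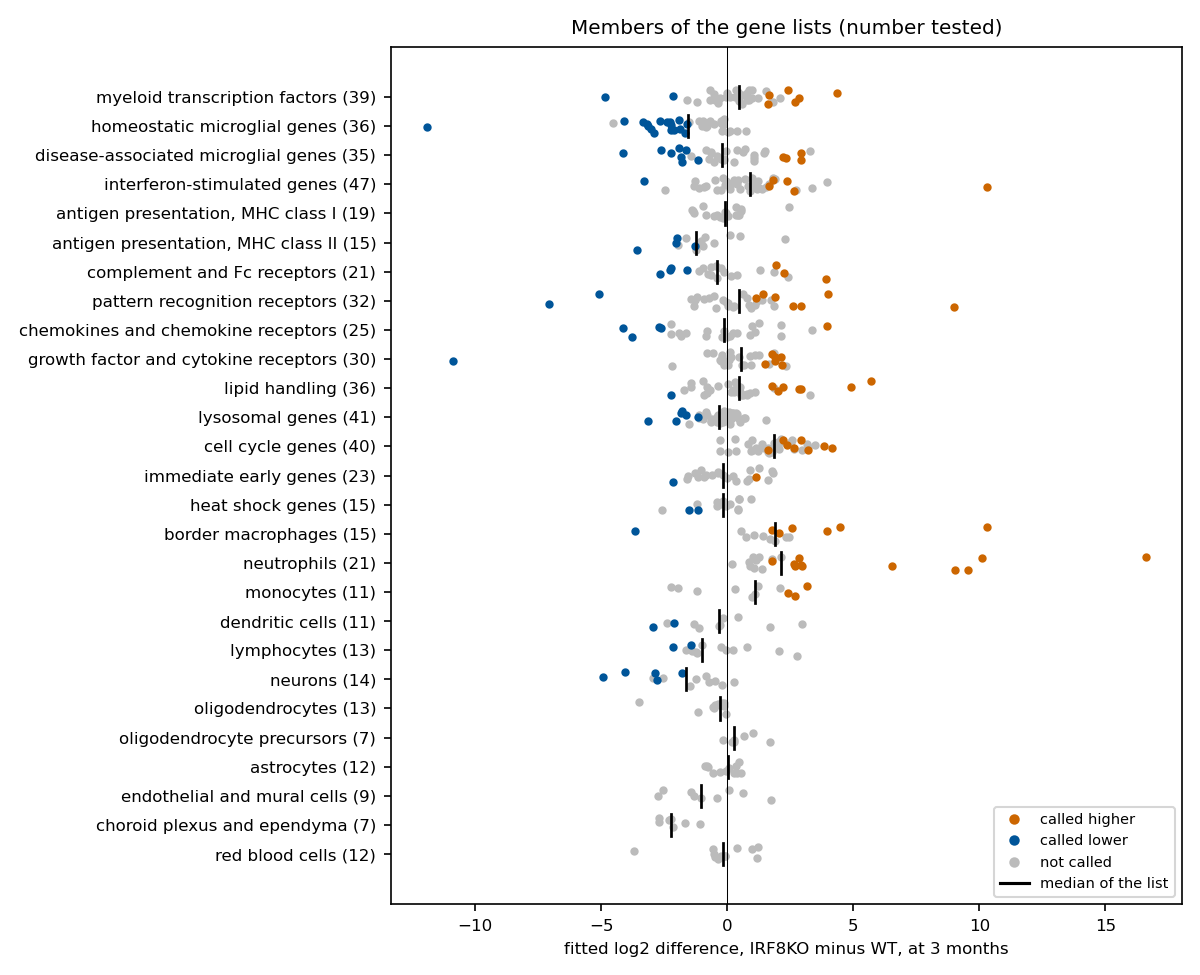
Fitted log2 difference between IRF8KO and WT for each tested member of 27 gene lists, with the number tested in brackets and the median of the list as a black bar. Orange points were called higher, blue points lower and grey points not called. All calls of the homeostatic, lysosomal, class II and neuronal lists are blue, and all calls of the cell cycle, neutrophil and monocyte lists are orange.

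Lists of other cells moved as well. Of 21 neutrophil genes 11 rose and 0 fell (median 2.14), and of 15 border macrophage genes 6 rose (Mrc1, Pf4, Siglec1, Clec12a, Cd38 and Stab1) and Wfdc17 fell (median 1.88). Siglec1, the macrophage receptor CD169, had 0 counts in the 4 WT libraries and 14.7, 9.19, 15.7 and 32.4 CPM across IRF8KO, at least 229-fold higher (adjusted p 0.00256). The border markers Cd163 (1.41), Lyve1 (1.04), F13a1 (1.70) and Ms4a7 (2.46) had positive values that were not called. Without IRF8KO replicate 1 or 2, 4 border macrophage rises and 7 neutrophil rises were called, and Clec12a was not (adjusted p 0.0684 and 0.0754). With the neutrophil covariate 4 and 2 were. That covariate is made from the neutrophil list itself, so nothing is read from the smaller number of neutrophil rises. Monocyte genes rose in 3 of 11 cases (among them Cd44 and Chil3), 1 with WT replicate 3 or any IRF8KO replicate left out, and cell cycle genes in 8 of 40 (Mcm3, Mcm4, Mcm5, Mcm6, Top2a, Prc1, Bub1b and Cdc20; median 1.86). The cell cycle calls were all lost without IRF8KO replicate 1 or 2, and up to 12 rises were called with another library left out. With the neutrophil covariate 0 were called, with Mcm6 going from 2.92 to 1.09 and Cdc20 from 2.64 to 1.31 but Prc1 from 3.85 to 5.1 and Bub1b from 4.14 to 4.58. Mcm6, a subunit of the replicative helicase, had 145 and 165 CPM in IRF8KO replicates 1 and 2 but 25.6 and 43.5 CPM in replicates 3 and 4, and the same 2 libraries held the most neutrophil transcripts.

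Genes of early neutrophil granules were among the largest rises outside the microglia-expressed set. Elane, neutrophil elastase, had 0 counts in WT and 1330, 3650, 174 and 444 CPM across IRF8KO, at least 17790-fold higher (adjusted p 0.00156). Ctsg, cathepsin G, had 180, 454, 10 and 38.7 CPM across IRF8KO and 0.333 CPM in WT replicate 3 alone (10.10, SE 1.39, adjusted p 0.0023; 0.0895 with the neutrophil covariate). Prtn3, proteinase 3, had 318, 647, 22 and 102 CPM across IRF8KO and 0.887 CPM in WT replicate 3 alone (9.56, adjusted p 0.00218; 0.0542). In each of these genes IRF8KO replicate 2 was highest and replicate 3 lowest. Ctsg and Prtn3 are in the list that makes the neutrophil score, so nothing is read from their calls lost with that covariate. Later neutrophil genes were mixed, with Ltf, Mmp8, Mmp9 and Cd177 called higher by 2.63 to 2.97 and others not called. S100a8 had 2290 to 26400 CPM across WT and 16700 to 47500 CPM across IRF8KO, with overlap (0.90, adjusted p 0.479), and Ngp had 1680 to 16100 and 19000 to 46400 CPM (1.77, adjusted p 0.151). Limma voom with quality weights called none of Elane, Ctsg and Prtn3.

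Neuronal transcripts were lower in the knockout, with 5 of 14 genes called (Gad1, Stmn2, Thy1, Syt1 and Meg3; median -1.63). Meg3 had 459, 277, 114 and 825 CPM across WT and 8.62, 31.2, 5.52 and 9.87 CPM across IRF8KO (-4.93, SE 0.717, adjusted p 0.00267). Dcx, the microtubule protein of young neurons, had 10.1, 6.41, 3.27 and 8.16 CPM across WT and 0 counts in IRF8KO, at least 77.1-fold lower (adjusted p 0.0103). Galnt17, a glycosyltransferase, was at least 82.7-fold lower (adjusted p 0.0136), and Il1rapl1, a synaptic adhesion protein, at least 65.1-fold lower (adjusted p 0.0187), the latter lost without IRF8KO replicate 1 (adjusted p 0.06) or 3 (0.0524). The pseudogene Rps13-ps1 and the noncoding gene Gm48614 were at least 212-fold and 83.5-fold lower, with counts that are uncertain for a copy of Rps13. The neuronal list as a whole took 0.0784% to 0.173% of gene counts in WT and 0.0107% to 0.052% in IRF8KO. In WT replicate 4 the neuronal and choroid plexus lists were both at their highest. Oligodendrocyte, astrocyte, endothelial, choroid plexus and red blood cell lists had 0 calls by edgeR, and without WT replicate 1 choroid plexus genes had 3 falls. Their part in the calls of the other genes was not tested, apart from the covariates given in the closing section.

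The same knockout was profiled at 9 months in 3 WT and 3 IRF8KO libraries of other animals, labelled C57BL/6, female and untreated. Sex-linked transcripts differed between the groups there too, with Y-linked genes at 0.0275% to 0.0307% of gene counts in WT and 0.000463% to 0.0149% in IRF8KO, and Xist at 0 to 1.65 CPM and 5.26 to 184 CPM before scaling. This order is the reverse of that at 3 months, and its part in the effects at 9 months and in the differences between ages was not tested. At 9 months 1098 (11.7%) of 9408 microglia-expressed genes were called higher and 1020 (10.8%) lower. Of the 371 genes that were higher at 3 months, 105 (28.3%) were higher at 9 months and 19 were lower. Of the 320 lower genes, 112 (35%) were lower at 9 months and 88 were higher. The difference between the ages was itself called for 127 of the 371 and 166 of the 320, and for 17.9% of 9414 microglia-expressed genes tested. As these genes were chosen by their effect at 3 months, nothing is read from the shares. Mrc1 rose by 4.47 at 3 and 4.45 at 9 months (difference 0.02, adjusted p 1). Ly86 fell by 7.08 and 7.26 (difference -0.09, adjusted p 0.969), and H2-DMa by 3.56 and 3.78 (-0.12, adjusted p 0.937). P2ry12 fell by 3.04 and 5.05 (difference -1.93, adjusted p 0.0177) and Apoe rose by 2.92 and 6.43 (3.56, adjusted p 0.000699). The fitted rises of Apoc1 (difference 6.06, adjusted p 0.00226) and Pf4 (3.83, adjusted p 0.000258) were also larger at 9 months. Before scaling, Apoe had 3010 to 11600 CPM across WT and 42600 to 68500 CPM across IRF8KO at 3 months. It had 438 to 587 CPM across WT and 21700 to 40000 CPM across IRF8KO at 9 months. Its larger fitted rise thus came with lower WT levels, and its IRF8KO levels were not higher at 9 months. Neutrophil genes took 7.67% to 10.8% of counts in IRF8KO and 0.0751% to 0.0819% in WT at that age, so the WT libraries of the ages differed in content. The neuronal list took 0.174% to 0.448% in IRF8KO and 0.000399% to 0.000661% in WT at 9 months, the reverse of the order at 3 months. Meg3 and Grin2b, an NMDA receptor subunit, fell at 3 months and rose at 9 (differences 15.8 and 16.0, adjusted p 2.29e-06 and 1.02e-05). Irf8 fell by 3.04 at 9 months (SE 0.545, adjusted p 0.00152), and the difference from 3 months was -1.84 (adjusted p 0.0515).

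Irf8 was also removed after birth in the conditional knockout, in C57BL/6 mice labelled female and 3 months old, with 3 libraries of IRF8flox (flox) and 4 of IRF8floxCx3cr1CreERT2 (Cre). The Cre is driven by Cx3cr1, which other myeloid cells share, and per the labels tamoxifen was given to pups of both groups. The series' design text says that YFP-positive microglia were sorted. The library labelled Cre replicate 1 had 1220 CPM of Irf8 before scaling, above the 1020 to 1170 CPM of the flox libraries, and those labelled Cre replicates 2 to 4 had 423, 382 and 457 CPM. With all 7 libraries 0 of 9387 microglia-expressed genes were called in either direction (0% and 0%), 1076 had an unadjusted p under 0.05, and DESeq2 called 164 genes of all. Without Cre replicate 1, 527 (5.61%) were higher and 243 (2.59%) lower in Cre. In that fit 10 of the 371 genes higher in the germline knockout were higher and 35 lower, and 7 of the 320 lower genes were lower and 82 higher. The difference between the germline and the conditional effect, with all libraries, was called for 255 of the 371 and 263 of the 320 (211 and 243 without Cre replicate 1), and for 8.39% of 9416 genes. Nothing is read from these shares, since the genes were chosen by the germline effect. Batf3 had 4.56, 4.31 and 2.02 CPM in the flox libraries and 1.42, 33, 70.6 and 41.7 CPM in those labelled Cre, before scaling. The library labelled Cre replicate 1 was thus closer to the flox libraries than to the other Cre libraries for Batf3 too, and the difference between the effects on Batf3 was -8.75 (SE 1.37, adjusted p 0.00147). Spint1, Upk1b and Slamf8, which had 0 counts in the germline knockout, were higher in the libraries labelled Cre replicates 2 to 4 than in flox. Spint1 had 9.24, 4.31 and 3.91 CPM in the flox libraries, 1.8 CPM in Cre replicate 1 and 179, 161 and 172 CPM in Cre replicates 2 to 4, before scaling. Without Cre replicate 1 the rises in Cre were 4.97 for Spint1 (adjusted p 1.1e-10), 4.85 for Upk1b (1.73e-11) and 4.0 for Slamf8 (5.44e-08), and with it none was called (0.19, 0.19 and 0.202). Apoe and Mrc1, which rose in the germline knockout, were lower in Cre replicates 2 to 4 than in flox. Before scaling, Apoe had 9510 to 18600 CPM in flox, 12600 in Cre replicate 1 and 943 to 1430 in Cre replicates 2 to 4. Mrc1 had 14.2 to 21.3, 11.9 and 0.984 to 3.53 CPM in the same order. In the reference WT libraries, before scaling, Spint1 had 404 to 433 CPM, Batf3 23.1 to 26.8 CPM, Apoe 587 to 751 CPM and Mrc1 6.63 to 11.1 CPM. For Spint1 and Apoe the libraries labelled Cre replicates 2 to 4 were thus nearer to the reference than flox was. For Irf8 flox was nearer, and for Batf3 and Mrc1 the reference lay between. Whether the labels of these 7 libraries match their genotypes was not tested. Neutrophil genes took 0.0165% to 0.0419% of counts in these 7 libraries and homeostatic genes 21.8% to 27.5%, outside the ranges of the germline libraries at 3 months.

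**Figure D5:**
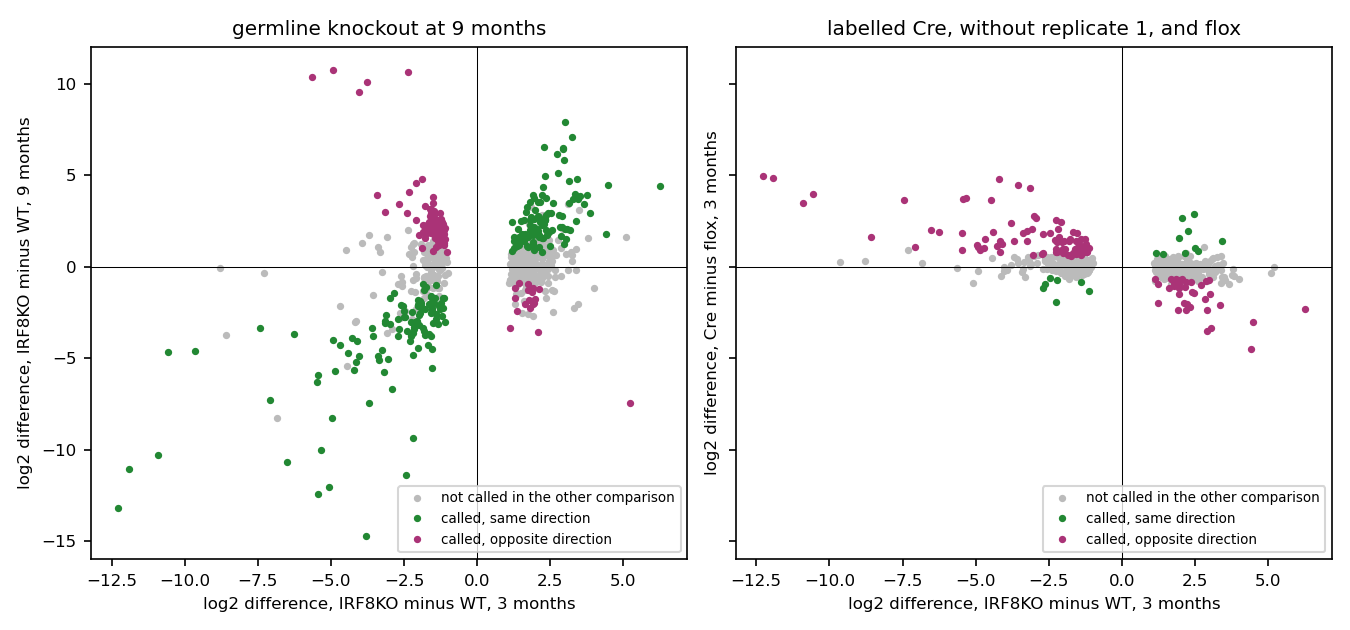
Fitted log2 differences of the 691 microglia-expressed genes called at 3 months in the germline knockout (horizontal axes) against those in the germline knockout at 9 months (left) and between the libraries labelled Cre, without replicate 1, and flox (right). Green points were called in the other comparison in the same direction, purple points in the opposite direction and grey points not at all. At 9 months 217 points are green and 107 purple, and between the libraries labelled Cre and flox 17 and 117.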

How the data were processed

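RNA sequencing was made of sorted microglia in 33 libraries, of which 8 were compared here. The authors deposited raw counts per gene for each library, and the unstranded column was used, so overlapping and antisense genes cannot be told apart. Per the submitters' processing notes, bcl2fastq, STAR 2.5.2b, Picard 2.17.11 and featureCounts of the Subread package were used with mm10. The annotation release is not given in the sources used here. Of 54146 gene IDs, 54079 matched GENCODE M21 (GRCm38) ignoring versions, 52480 of them with the same version.

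Genes were filtered with filterByExpr, scaled with TMM and tested with edgeR's quasi-likelihood test (edgeR 4.0.16, R 4.3.3) within the 8 libraries, and a gene was called at a Benjamini-Hochberg adjusted p under 0.05. CPM are per TMM-scaled library unless stated. DESeq2 1.42.0 and limma 3.58.1 were alternatives, and the differences between effects used 1 model over the libraries of both experiments. Exact permutation tests were two-sided. The pipeline was tested on simulated data. Reads carry no molecular identifiers, so intervals and bounds cover counting error only.

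Named genes were Irf8 and Batf3, the 10 largest rises and falls among microglia-expressed genes and the 5 largest each among other genes, where groups did not overlap and the higher group averaged 5 CPM or more. Up to 4 called and 2 abundant uncalled members of each functional list, 2 abundant members of each cell type list, up to 3 genes a side of each difference between effects and 4 promoter examples completed them. Other genes given with values were chosen after their values were seen. The libraries and gene lists were chosen with earlier results of these data known. Replicate numbers were not treated as pairs. Some genes that the rule names are not reported here.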

Additional observations from a re-analysis of the deposited data

Results flagged for a closer look

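In some groups of 4 libraries 1 library lay far from the other 3. Among the WT libraries the highest value stood apart for Thbs1 (9.49 CPM), Pidd1 (0.72 CPM), Mrc1 (17.7 CPM), Htra3 (21.1 CPM), Tnfrsf17 (56.7 CPM), Ctsg (0.333 CPM), Prtn3 (0.887 CPM) and Gm48614 (17.0 CPM). Among the IRF8KO libraries the lowest value of Mrc1 (171 CPM) and the highest values of Klk8 (1.39 CPM) and Pomgnt2 (0.136 CPM) stood apart. These are 11 of 53 groups examined. The rule assumes normally distributed values, and most of the genes were picked as extremes. A group with counts in only 1 library meets it by construction, as for Pidd1, Ctsg, Prtn3 and Pomgnt2. The number flagged can therefore not be set against a rate by chance.

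The difference between IRF8KO and WT was not the same at both ages for some genes, by a test of the change itself. The effect at 9 months exceeded that at 3 months by 16.04 on the log2 scale for Grin2b (adjusted p 1.02e-05), by 15.83 for Xist (0.000203) and by 15.8 for Meg3 (2.29e-06). Sex-linked transcripts and the neuronal list changed their order between the groups from 3 to 9 months, and their part in these values was not tested. The difference was -12.1 for Itpkc (adjusted p 0.00407), -12.51 for Tnfsf10 (0.00407) and -12.61 for Pidd1 (0.000554). Before scaling, Itpkc had 32 to 38.2 CPM and Tnfsf10 8.16 to 10.2 CPM in the reference WT libraries. In the WT libraries of the IRF8KO experiment at 3 months they had 0 to 1.44 CPM and 0 to 0.0599 CPM, and Pidd1 was low there too. The germline effect exceeded the conditional effect by 8.09 for Thbs1 (adjusted p 0.00197), 7.53 for Fam196b (0.0316) and 6.93 for Cd274 (0.0162). That difference was -8.75 for Batf3 (adjusted p 0.00147), -14.28 for Slamf8 (0.00133), -16.49 for Upk1b (0.000883) and -16.93 for Spint1 (0.000533). These values use all libraries labelled flox and Cre, whose match to their genotypes was not tested. Before scaling, Cd274 had 7.43 to 11.9 CPM in reference WT and 0 to 0.18 CPM in the WT libraries of the IRF8KO experiment at 3 months. Thbs1 had 16 to 17.3 CPM in reference WT, below the 174 to 274 CPM across IRF8KO at 3 months. Where a group had 0 counts the size is a fitted value and no bound.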

How the results depend on the processing

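The count of 970 called genes (691 microglia-expressed) was 2049 (1421) with DESeq2, 1680 (1293) with limma voom, 1655 without a filter on low counts and 3300 (1957) in a model of all 33 libraries. It was 293 (226) with the neutrophil score as a covariate, 604 (414) with the red blood cell score and 43 (17) with the sex score, under which Pidd1 (-0.24) and Ifi30 (0.47) turned in sign. The oligodendrocyte score as a covariate gave 1318 (991). Leaving out 1 library gave 305 to 1128 (208 to 884). The share of higher calls was 56.2%, 46.3% in the model of all libraries and without the filter, 45.9% with DESeq2 and 67.4% with the sex score. With a replicate block 988 genes were called, 783 of them shared, 66.5% higher. The block ended the call of Irf8 (-1.14, adjusted p 0.0603), left 1 class II and 2 lysosomal falls and gave 18 cell cycle rises. The pairing was checked by correlating deviations of same-numbered libraries, which gave -0.0653, 0.204, 0.2 and 0.115, so the numbers were not taken as pairs. WT replicates 2, 3 and 4 correlated best with their own number and WT replicate 1 did not. With a library left out, 2266 to 4126 genes were called at 9 months, 0 to 952 between Cre and flox (164 with DESeq2), 1029 to 1913 microglia-expressed genes for the difference between ages (1029 without 9-month WT replicate 1) and 324 to 1255 for that between germline and conditional effects. The neutrophil share difference ranged from 5.66 to 8.91 percentage points (6.77 without WT replicate 3, exact p 0.0571). The share of lower microglia-expressed genes with either motif was 4.96% and, in the 100 bases before the start, 1.24%. The cause of these changes was not tested.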
